A study of Drosophila melanogaster with 3 samples.

Results

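The 302 roo insertions described here are every call with the family name roo among 1702 transposable element (TE) insertions called from genomic DNA of 1 fly strain, and the 1400 calls of the other 88 families are what they are set against. No minimum of read support was used to choose them. The DNA came from adult females of the Drosophila melanogaster strain Oregon-R w1118 (ORw1118), with 100 flies in each of 3 biological replicates. The replicates were pooled before calling, so the study holds 1 group and 1 value for each insertion, and there is no spread between replicates to set beside it. Insertions not present in the reference genome were called with TIDAL, a program that looks for split reads joining a TE to unique sequence. One list, from paired reads treated as single-end, is the main one, and a second list from read pairs merged by their overlap, with 272 roo calls of 1487, serves as a check from the same DNA.

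roo is a retrotransposon with long terminal repeats (LTRs), identical sequences at its left and right ends, and belongs to the BEL/Pao group. It moves through an RNA copy that is reverse transcribed and inserted elsewhere, so that an old copy stays in place when a new one is made. It is known as one of the most abundant TEs in the gene-rich arms of D. melanogaster. The stretch of the genome in which an insertion lies is given by TIDAL as an interval between its left and right split reads, and the exact base is not given.

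Each call carries 3 measures of its support. Supporting reads are split reads at the left and right edges of the insertion, given as a count. Reference reads are reads of the site without the TE, normalized by the authors. The coverage ratio is supporting reads divided by reference reads plus 1, rounded to 1 decimal, so a high ratio means many reads with the TE for few reads without it. A ratio of at least 3 is used below as the limit for a high ratio. The paper used the same minimum to call TEs in this strain. Of the 302 roo calls described here 68 reach it, and the others lie below what the paper took as a called TE.

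roo was the family with the most calls, 302 against 209 for FB, a foldback element, and 104 for jockey, a retrotransposon without LTRs. A roo insertion had between 4 and 166 supporting reads, with a median of 40 and quartiles of 13.2 and 84.8. The insertions of the other families had between 4 and 197, with a median of 36. Reference reads had a median of 37.6 at roo insertions and 38.6 at those of other families. The read support of a typical roo call was thus close to that of the rest, and the ratio had a median of 1.0 for roo and 0.900 for the other families.

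The ratios of roo were spread widely around that median. Of the 302 calls, 147 (48.7%) had a ratio under 1, 87 (28.8%) had one of 1 to under 3 and 68 (22.5%, exact 95% binomial interval 17.9 to 27.7%) had one of at least 3, with 17 (5.63%) at 5 or more. Over all families, 16.4% of the calls had a ratio of at least 3. Among the 599 calls of other LTR families the middle class was larger, with 241 (40.2%) under 1, 240 (40.1%) at 1 to under 3 and 118 (19.7%) at 3 or more. No roo call had a ratio of exactly 3.0, and 1 call stood on each side of the limit, at 3.1 and at 2.9.

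**Figure D1:**
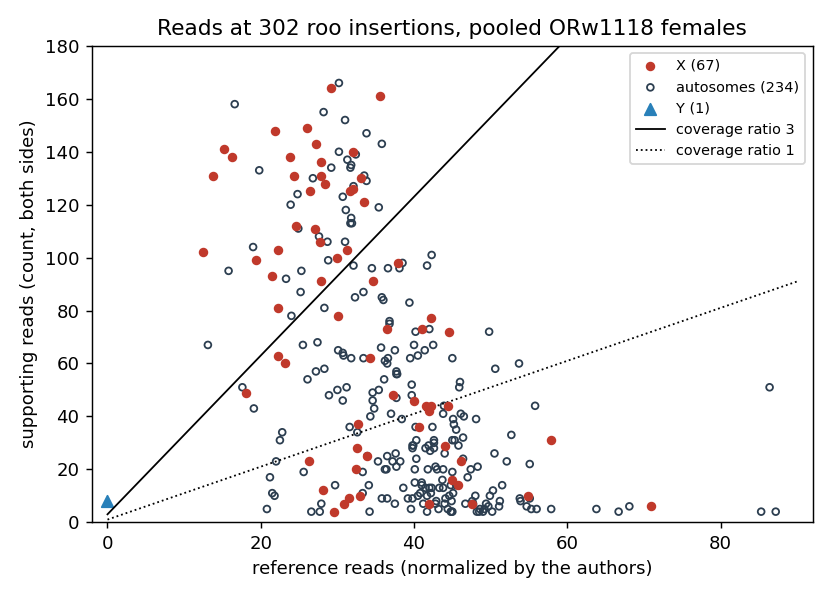
Supporting reads (count, y axis) against reference reads (normalized by the authors, x axis) at each of the 302 roo insertions, with filled points for X, open points for autosomes and a triangle for Y. The solid line marks a coverage ratio of 3 and the dotted line a ratio of 1, and 30 of the 67 insertions on X lie on or above the solid line, against 37 of the 234 on autosomes.

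High ratios were more frequent for roo than for the other families together, but the difference did not pass the test against LTR families alone, within X or autosomes, or at the other ratio minimums tried. A ratio of at least 3 was reached by 68 of 302 roo calls (22.5%) and by 211 of 1400 calls of other families (15.1%, 13.2 to 17.1%), a difference of 7.45 percentage points (two-sided Fisher's exact test, p = 0.00202, Benjamini-Hochberg adjusted p = 0.00836 over 8 comparisons). Against other LTR families the difference was 2.82 points (exact test, adjusted p = 0.480). It was 11 points among calls on X (30 of 67 against 71 of 210, exact test, adjusted p = 0.178) and 4.10 points among calls on autosomes (37 of 234 against 139 of 1187, adjusted p = 0.133). These adjusted values put the p of X or of autosomes in place of that of all calls among the 8 comparisons. In the order of the 23 families with at least 20 calls, roo stood 9th by this share, between 0% for Doc, a retrotransposon without LTRs, and 35.4% for opus, an LTR retrotransposon. Calls are separate loci of 1 strain and not replicates of a condition, and the intervals and p-values cover counting error only.

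roo insertions lay on X more often than those of the other families together. Of the roo calls on the 5 large arms, 67 (22.6%, 17.9 to 27.7%) were on X, against 210 of 1385 for other families (15.2%, 13.3 to 17.2%, two-sided Fisher's exact test, p = 0.00250, adjusted p = 0.00836). Against other LTR families together it also passed (14.9%, exact test, adjusted p = 0.0260). It did not pass against a group of them with mdg1 (14.5%) or with opus (21.3%). Single families such as FB (27.3%) and Transpac (34.5%) had higher shares than roo. The density was 2.85 roo calls per Mb on X (exact 95% Poisson interval 2.21 to 3.61), 2.46 on 3L, 2.22 on 2R, 1.96 on 3R and 1.79 on 2L (1.29 to 2.42). Neighbours in this order have overlapping intervals. The other families had their lowest density of the large arms on X, with 8.92 calls per Mb, and between 10.3 and 11.4 on the others. roo made up 24.2% of all calls on X and between 14.8% and 17.7% of those on the other large arms. Among high ratios alone, 30 of 67 roo calls (44.8%) and 71 of 209 calls of other families (34%) were on X (exact test, adjusted p = 0.470).

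The roo insertions on X also had higher ratios than those on autosomes. A roo call on X had between 4 and 164 supporting reads with a median of 77.0, and one on an autosome between 4 and 166 with a median of 31.5. Reference reads moved the other way, with medians of 31.7 on X and 39.7 on autosomes. The median ratio was 2.5 on X and 0.800 on autosomes, and a ratio of at least 3 was reached by 30 of 67 calls on X (44.8%, 32.6 to 57.4%) and by 37 of 234 on autosomes (15.8%, 11.4 to 21.1%). This difference of 29.0 points was past the threshold (two-sided Fisher's exact test, p = 3.267e-06, adjusted p = 9.801e-06 over 3 comparisons within roo).

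The same contrast was present in the other families, so it was not shown to be particular to roo. Their calls on X had medians of 52.0 supporting reads and 33.4 reference reads, against 33.0 and 39.3 on autosomes, and a ratio of at least 3 in 33.8% and 11.7% of the calls (two-sided Fisher's exact test, p = 5.014e-14). The odds of a high ratio were 1.59 times as high for roo as for other families on X and 1.42 times as high on autosomes, and the exact test of the difference between these odds ratios gave p = 0.862. The part of the lower reference reads on X in these ratios was not tested.

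Among the large autosomal arms, 3L had the most high ratios and 3R the fewest. On 3L, 19 of 69 roo calls (27.5%, 17.5 to 39.6%) had a ratio of at least 3, on 2L 8 of 42 (19.0%, 8.60 to 34.1%), on 2R 6 of 56 (10.7%, 4.03 to 21.9%) and on 3R 4 of 63 (6.35%, 1.76 to 15.5%). The intervals of 3L and 3R do not overlap, and the arms were not tested against each other. The other families had 15.3% on 3L, 12.9% on 2L, 12.1% on 2R and 7.21% on 3R. The arms stood in the same order in both groups. On the small chromosome 4, none of the 4 roo calls had a high ratio, which at this number allows a share of up to 60.2%.

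**Figure D2:**
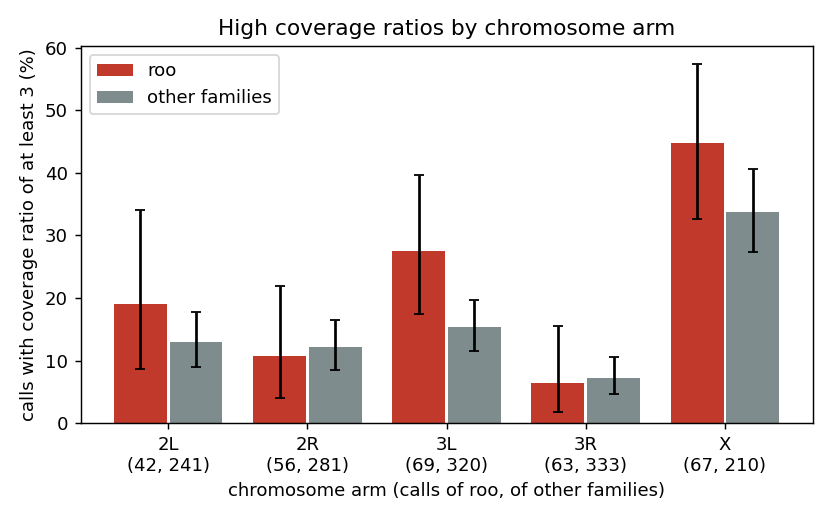
Share of the calls that reach a coverage ratio of 3 (y axis, %) on the 5 large chromosome arms (x axis, with the numbers of calls), for roo on the left of each pair and other families on the right. Bars carry exact 95% binomial intervals, and the highest share of both groups is on X, 44.8% for roo and 33.8% for other families.

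Along the arms, roo was rarer near the centromere than the other families. Within 5 Mb of the centromeric end lay 19 of the roo calls on these arms (6.4%, 3.90 to 9.81%) and 169 of 1385 calls of other families (12.2%, 10.5 to 14%, two-sided Fisher's exact test, p = 0.00313, adjusted p = 0.00836). Against other LTR families the values were 6.4% and 14.6% (exact test, adjusted p = 0.00212). These families were not alike, and roo was not tested against single groups of them here. A group of 4 families with mdg1, mdg3 and blood among them had 13 of 166 calls there (7.83%, 4.24 to 13%), an interval that overlaps that of roo. A group with opus and the families named gypsy had 22 of 122 (18%, 11.7 to 26.0%), an interval that does not. The share of roo among all calls was 10.1% in those 5 Mb, 15.6% from 5 to 10 Mb, 15.5% from 10 to 15 Mb, 19.4% from 15 to 20 Mb and 22.8% beyond. Within 2 Mb only 3 roo calls and 42 others remained, and the difference there did not pass (exact test, adjusted p = 0.0963). For 2L, 3L and X the end of the arm was taken as the last base of an annotated gene.

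In relation to genes, no difference between roo and the other families passed the test. Inside genes lay 191 of 302 roo calls (63.2%, 57.5 to 68.7%) and 922 of 1400 others (65.9%, 63.3 to 68.3%), a difference of -2.61 points (exact test, adjusted p = 0.509). Only in introns lay 157 roo calls (52.0%) and 763 others (54.5%, exact test, adjusted p = 0.509). An exon or untranslated region (UTR) was touched by 34 roo calls (11.3%, 7.92 to 15.4%) and 159 others (11.4%, 9.74 to 13.1%, exact test, adjusted p = 1.0). The differences inside genes and in introns change sign without FB, of whose 209 calls 94.3% were inside genes.

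Of the 34 roo calls in exons or UTRs, 15 touched a 3' UTR, 12 an exon of another kind and 8 a 5' UTR, with 1 call in both an exon and a 5' UTR. The remaining 111 roo calls were classed as intergenic by the authors. By RefSeq gene spans, 12 of these overlap a gene and 99 lie outside, at a median of 2206 bp from the nearest gene (quartiles 1033 and 5857 bp, longest 18407 bp). The 435 calls of other families outside genes lay at a median of 1965 bp.

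Within roo, high ratios were reached by 36 of 191 calls inside genes (18.8%) and 32 of 111 outside (28.8%), a difference of -9.98 points that did not pass the test (two-sided Fisher's exact test, p = 0.0627, adjusted p = 0.0940). The median ratio was 0.900 in introns, 0.750 in exons or UTRs and 1.40 in intergenic calls. The supporting reads had medians of 36.0, 29.5 and 48.0 in the same order, and the ranges of the 3 groups overlap almost wholly.

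**Figure D3:**
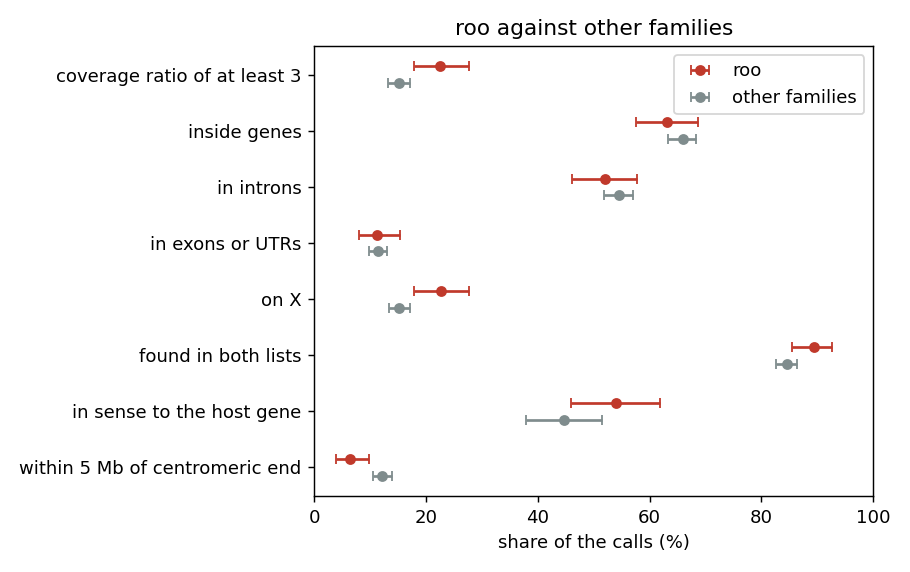
Shares of the calls (x axis, %) with each of 8 features (rows) for roo, the upper point of each pair, and other families, the lower point, with exact 95% binomial intervals. The differences in coverage ratio, in place on X and in distance to the centromeric end pass the adjusted threshold. The difference in coverage ratio does not pass against other LTR families. That in place on X does, but not against the groups with mdg1 or opus alone.

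Which way a roo copy points was inferred from the part of the TE that the split reads reach. The TE positions of roo reads fall into 4 narrow groups, which begin at bases 1, 304, 8662 and 8961 of the TE sequence used for calling, at the start and end of the left and of the right LTR. A copy whose left side reaches an LTR start and whose right side reaches an LTR end points along the reference strand, and the opposite pattern marks the other strand. The rule takes the first TE position given for a call as that of its left side. The reverse order would swap all strands and orientations given here. A check of this order compared the sides by distance into the LTR and by log ratio of reads. It was weak, with a Spearman rho of -0.19 (-0.30 in merged reads) between the first minus second distance and the first over second reads. The order thus stays an assumption, and every label of sense or antisense below rests on it. By this rule 141 roo calls were on the plus strand, 144 on the minus strand and 17 could not be settled. All 256 calls that were settled in both lists had the same strand in both. This cannot test the rule, since both lists come from the same DNA and used it.

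Inside genes of 1 known strand, roo pointed along the gene in 88 of 163 calls (54.0%, 46.0 to 61.8%). The 10 other LTR families for which the rule could be set pointed along it in 95 of 213 (44.6%, 37.8 to 51.5%), a difference of 9.39 points that did not pass the test (two-sided Fisher's exact test, p = 0.0773, adjusted p = 0.124). In introns roo was in sense in 77 of 139 calls (55.4%) and in exons or UTRs in 11 of 24 (45.8%, 25.6 to 67.2%). High ratios were reached by 15 of 88 roo calls in sense (17.0%) and 15 of 75 in antisense (20%, exact test, adjusted p = 0.687).

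The 17 calls without a settled strand differ from the rest in width. In 8 of them both sides reach an LTR start and in 9 both reach an LTR end. Their intervals were 64 to 282 bp wide with a median of 84.0 bp, and 15 of 17 were under 120 bp. The 285 settled calls were 113 to 312 bp wide with a median of 225 bp, and 2 were under 120 bp. The unsettled calls were not all weak. Their supporting reads had a median of 31.0 and a highest value of 81, against a median of 40 and a highest value of 166 among the settled calls. Of the 17, 13 were also found in merged reads, against 257 of the 285. What gives such calls was not tested.

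**Figure D4:**
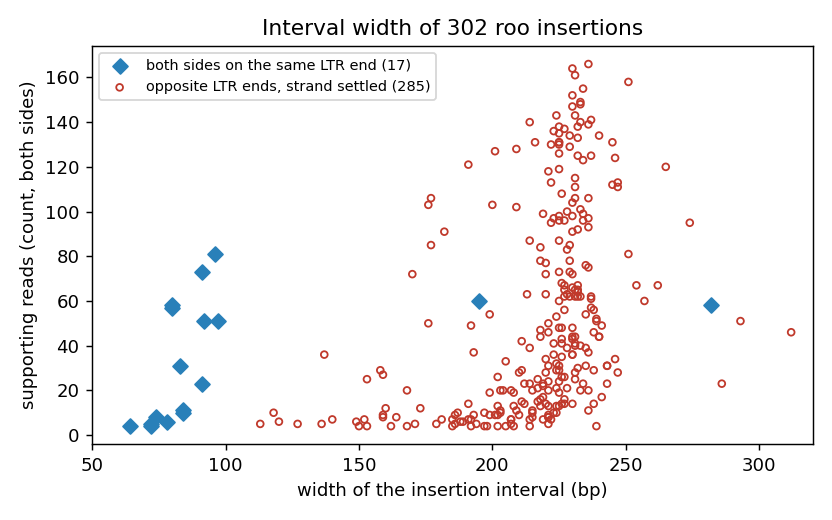
Supporting reads (count, y axis) against the width of the insertion interval in bp (x axis) at the 302 roo insertions, with diamonds for the 17 calls whose sides reach the same kind of LTR end and open circles for the 285 others. Of the diamonds 15 lie under 120 bp, and of the circles 2.

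The merged reads repeated most of this list. Of the 302 roo calls 270 (89.4%, 85.4 to 92.6%) overlap a roo call from merged reads by at least 1 bp, and these are 99.3% of the 272 merged calls. The other families had 1184 of 1400 (84.6%, exact test, adjusted p = 0.0618). The 32 roo calls found only in reads treated as single-end were mostly weak, with a median of 5 supporting reads, 29 of them with at most 10 and a highest ratio of 2.6. All 68 calls with a high ratio kept one in merged reads, and 5 further calls, at 2.5 to 2.9 in the main list, reached it there. This gives 73 of 272 (26.8%) for roo and 204 of 1215 (16.8%) for other families in merged reads, where 18.6% of all calls reached the limit. Over the 270 shared calls the ratios of both lists had a Spearman rho of 0.98, as a description of lists made from the same reads.

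Among the calls found in both lists, the 5 with the highest ratios in the main list were as follows. On 3R, roo lies between 9883593 and 9883844 (Release 6 coordinates) in an intron of Glut4EF, a transcription factor gene, in sense, with 158 supporting reads, 91 on the left and 67 on the right, and 16.6 reference reads. The ratio of 9.0 has an exact 95% Poisson interval of 7.63 to 10.5 by its supporting reads alone. In the merged list the ratio was 7.8, from 76 supporting and 8.8 reference reads. On X between 5147517 and 5147733, in introns of CG15465 and rugose (rg, an A-kinase anchor protein), 131 supporting and 13.8 reference reads gave a ratio of 8.9 (7.40 to 10.5), with 11.8 in merged reads. The reference reads of both are below the lower quartile of all roo calls, 30.7. The choice by highest ratio favours this, since the ratio divides by them.

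Another of the 5 lies on X between 14866515 and 14866752, in introns of Flo2, which encodes a flotillin, and of CG9518 on the other strand, with 141 supporting and 15.2 reference reads and a ratio of 8.7 (7.33 to 10.3), against 6.5 in merged reads. On X between 2844417 and 2844642, in an intron of kirre, an adhesion protein needed for the fusion of muscle cells, 138 supporting and 16.2 reference reads gave a ratio of 8.0 (6.74 to 9.48), against 13.2 in merged reads. The last of the 5 is the only roo call on Y, between 3630428 and 3630502, 12089 bp from the nearest gene. It had 8 supporting and 0.0 reference reads in both lists, and its ratio of 8.0 (3.45 to 15.8) rests on the 1 that is added to the reference reads. The flies were labelled female, and its strand is 1 of the 17 not settled.

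Apart from the calls on 3R and Y already given, the roo calls with most supporting reads on each chromosome arm had ratios of 5.4 or less. Their reference reads, 28.2 to 31.8, lay near the lower quartile. On 2R, between 5668159 and 5668395, a call classed as intergenic near CG8245 had 166 supporting and 30.2 reference reads (ratio 5.3). By RefSeq gene spans this call overlaps a gene. On X, between 5860629 and 5860859 and 3691 bp from the nearest gene, the values were 164 and 29.2 (5.4). On 2L, between 18525694 and 18525928 in an intron of CG10211, they were 155 and 28.2 (5.3). These 3 are close in reads and ratio, and their Poisson intervals, which lie between 4.51 and 6.33, overlap. On 3L, between 4205578 and 4205808 in an intron of CG43367, 152 supporting and 31.0 reference reads gave 4.8. On chromosome 4, between 631306 and 631539 in an intron of CG1732, 62 supporting and 31.8 reference reads gave 1.9, with 59 of the supporting reads on the left side and 3 on the right.

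Of the roo calls in exons or UTRs, 6 had a ratio of at least 3. On X, roo lies in the 3' UTR of Tsp3A, a tetraspanin, between 2618090 and 2618313, with 136 supporting and 27.8 reference reads and a ratio of 4.7 (3.96 to 5.59). Also on X, it lies in the 3' UTR of CR45521 between 14541744 and 14541976 with 125 and 26.4 (4.6), and in an exon of CG43090 between 6199670 and 6199895 with 130 and 33.1 (3.8). All 3 on X lie above the X median of 77.0 supporting reads, which the choice by a high ratio favours.

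The other 3 are on autosomes. On 2L, between 8654933 and 8655178, roo lies in antisense in Sema-1a, a semaphorin of axon guidance, with 131 supporting and 33.5 reference reads (3.8). The main list puts it in an exon and the merged list, where the ratio was 4.0, in an intron. On 3L, between 1199210 and 1199424, it lies in antisense in the 3' UTR of Aplip1, an adaptor for the motor protein kinesin, with 87 and 25.2 (3.3). On 3R, between 28877733 and 28877967, it lies in an intron of CG33203 and the 3' UTR of CG14528 with 99 and 28.8 (3.3). In merged reads the ratios of these 3 were 4.0, 3.0 and 3.6, all at or above the limit.

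The 191 calls inside genes name 195 genes, all found in RefSeq, of which 188 are protein coding. The other families name 725 genes, also all found there, of which 692 are protein coding. The hosts of roo are long, with a median span of 33857 bp. The median was 25474 bp for the 725 hosts of other families and 1710 bp over all RefSeq genes of these chromosomes. Of the 195, 183 host 1 roo call, 8 host 2 and 4 host 3. Of the 725, 557 host 1 call of the other families together, 110 host 2, 37 host 3 and 21 host more than 3. Among the 195 hosts of roo, 72 also host a call of another family. This is 36.9% of the hosts of roo and 9.93% of the hosts of other families. For scale, the 725 hosts of other families compare with 17684 RefSeq genes on these chromosomes. Both sets of hosts are longer than RefSeq genes in general, and the part of length in this overlap was not tested.

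The 4 genes with 3 roo calls are CG3777, CG42389, heph and kirre, and in each the ratios of the calls differ widely. In kirre, which spans 394149 bp of X and was named 11 times over all families, the ratios were 8.0, 0.9 and 0.6, with 138, 36 and 29 supporting reads. In CG3777 on X the ratios were 4.2, 3.5 and 1.7, with 140, 81 and 73 supporting reads, so all 3 calls were well covered. In heph on 3R, which encodes a polypyrimidine tract-binding protein that acts in RNA processing, the ratios were 1.1, 0.6 and 0.1, with 51, 24 and 4 supporting reads.

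CG42389 on 2L, which RefSeq calls mtgo, holds the roo insertion named TE1 in the study. It lies in an intron between 16610062 and 16610287, in sense, with 119 supporting reads and 35.4 reference reads (3.3). In the same window a weak roo call, between 16602258 and 16602322, had 4 supporting and 85.3 reference reads, a ratio of 0.0 (0.0126 to 0.119 before rounding) and no match in merged reads. A further roo call of the gene, between 16570725 and 16571037 in antisense, had 46 and 34.6 (1.3). In the window on X that the study named c.TE2, roo lies between 10409841 and 10410072, at 24 bp from the nearest RefSeq gene, with 143 supporting and 27.2 reference reads and a ratio of 5.1 (4.27 to 5.97). It is classed as intergenic next to flw, a catalytic subunit of protein phosphatase, in the main list and as in its 3' UTR in the merged list, where the ratio was 5.9.

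Most roo calls lay far apart. The median gap between neighbours on the large arms was 306298 bp (quartiles 111943 and 556438 bp), and 9 of 292 gaps were under 10 kb. Whether this spacing differs from that of other families, or from a random one at the same density, was not tested. The closest pair, 628 bp apart in an intron of CG13366 on X, had 78 supporting reads (ratio 2.5) and 6 (ratio 0.1), and the weak call, 78 bp wide and without a settled strand, was found only in the main list. The next pair, 1477 bp apart in cbx on 2R, had 47 and 58 supporting reads (ratios 1.2 and 2.0), and both calls were found in merged reads.

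The third pair, 2228 bp apart in an intron of Pdfr on X, the receptor of a clock neuropeptide, had 7 and 121 supporting reads (ratios 0.2 and 3.5). Both of its calls were in sense, and the weak one was found only in the main list. In these 3 pairs, 2 of the 6 calls had no match in merged reads, against 32 of 302 over all roo calls. A single roo call overlapped a call of another family.

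Against 2 groups of other LTR families, 3 features were tested, the ratio, the place inside genes and the place on X, and none of these differences passed. The group with mdg1 had 167 calls, with ratios of at least 3 in 22.8%, 62.9% inside genes and 14.5% on X. In the group with opus, these shares were 26.0% (32 calls), 62.6% (77 calls) and 21.3% (26 calls). The values of roo were 22.5%, 63.2% and 22.6%. The smallest p of the 6 comparisons was that of the share on X against the group with mdg1 (two-sided Fisher's exact test, p = 0.0384, adjusted p = 0.230). Among the 23 families with at least 20 calls, roo ranked 4th by share on X, after Transpac (34.5%), FB (27.3%) and another LTR family (24.4%), and 12th by share inside genes.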

How the data were processed

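Reads of 3 replicates of ORw1118 genomic DNA (adult females) were filtered by the authors with Trim Galore, pooled and passed to TIDAL, as single-end reads and as merged pairs. Supporting reads were deposited as counts, without normalization. Reference reads are a signal that the authors normalized in a way not given in the sources used here. The deposited coverage ratio equals supporting over reference reads plus 1, within 0.051, for all 1702 calls. The BLAT score deposited by the authors was not used. The fraction of supporting reads on the left side was deposited by the authors and used only in the ranges.

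Family, gene and gene part came from the lists. Calls of 1 family with intervals overlapping by 1 bp were matched between lists. Gene spans came from RefSeq, Release 6. LTR positions were grouped at gaps over 100 bases, keeping groups with over 4% of the positions, a rule chosen after the positions were seen, with host strand from the authors' annotation. For shares, Fisher's exact test (two-sided) was used at 0.05, and p-values were adjusted by the Benjamini-Hochberg method over 8 comparisons between families, 3 within roo and 6 with like families. Odds ratios were compared by Zelen's exact test. Intervals are exact (Clopper-Pearson or Poisson, 95%). The steps ran in Python 3.11.15 (pandas 2.3.3, scipy 1.17.1, matplotlib 3.10.9, numpy 2.4.6) and were tested on simulated data.

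Insertions were named by rule: those in the windows of TE1 and c.TE2, the 5 highest ratios found in both lists, those in exons or UTRs with a ratio of at least 3, genes with at least 3 roo calls, the 3 closest pairs and the call with most reads on each chromosome. The members and the rules were chosen with earlier results of these data known. Alternatives were the merged list, shared calls, other families, other minimums of ratio and reads, other gene and centromere limits and, added after seeing the data, X and autosomes apart, arms without the centromeric 5 Mb and the median ratio in other sets of calls. Sequences of TEs or insertion sites were not used here.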

Additional observations from a re-analysis of the deposited data

How the results depend on the processing

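Of 77 alternative values, 62 were classed as unchanged. For shares this means the same direction and side of the threshold, and it includes results that did not pass in the main list. The median ratio of roo has no threshold. The share in sense had the same counts against other LTR families and without FB (88 of 163 and 95 of 213). These counts could not change, as the strand rule was set for LTR families only. The share of high ratios was unchanged in 4 of 10 alternatives. The higher share of coverage ratios of at least 3 in roo, 7.45 percentage points, did not pass against other LTR families (2.82 points), at ratio minimums of 1 (2.97), 2 (6.0) and 5 (2.20), or, chosen after seeing the data, on X (11) and on autosomes (4.10) alone. It passed in merged reads, in calls found in both lists, without FB and with at least 10 supporting reads. With ratios of at least 3 only, the differences in the share on X (10.8 points) and within 5 Mb of the centromeric end (-8.75 points) did not pass, with 67 roo calls left, and a limit of 2 Mb gave -2.02 points. The share inside genes and in introns turned to higher in roo against other LTR families (0.307 and 3.24 points) and without FB (2.37 and 2.78 points), none past the threshold. With at least 10 supporting reads the share found in both lists passed (4.54 points, exact test, adjusted p = 0.00450), and the median ratio of roo, also chosen after seeing the data, was 1.4. The causes were not tested, beyond what the fewer calls or the other families themselves show. The difference between X and autosomes within roo passed under all 6 alternatives, with adjusted p between 6.107e-06 and 0.00127.

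No paired analysis was possible because the replicates were pooled before calling and each insertion has 1 value, and for the same reason no replicate was left out. Calls with 4 or 5 supporting reads have wide counting intervals. TE copies of the reference genome were not analysed here.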
